A study of Arabidopsis thaliana with 4 samples.

Results

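The report concerns HAK5 (AT4G13420), a potassium transporter of the root, and 9 other genes of potassium transport in Arabidopsis thaliana. The set was selected on the log2 ratio of HAK5 on these same arrays, so that its Al response is given as a description and without a test. The other 9 genes were listed for their function, namely the transporters KUP1 (AT2G30070), KUP2 (AT2G40540), KUP3 (AT3G02050) and KUP4 (AT4G23640), the channels AKT1 (AT2G26650), KC1 (AT4G32650), GORK (AT5G37500) and SKOR (AT3G02850), and the protein kinase CIPK23 (AT1G30270). All probes of these 10 loci were taken, which gave 12 probes out of 43603, for 10 loci out of 25482 with a probe. KUP2 and KUP4 have 2 probes each, and the brighter probe stands for the gene. All 12 probes passed the filter on dim signals (well above the local background in at least 1 dye on at least 2 arrays), as did 34742 probes in all.

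Plants of the Col-0 ecotype, which is the wild type here, were compared with 1 transformant line in the Col-0 background, TF6, that carries AvSAMS1, an S-adenosyl methionine synthetase gene of the Al-tolerant grass Andropogon virginicus, under the cauliflower mosaic virus 35S promoter. In each line, RNA of Al-treated plants (Cy5) was hybridised together with RNA of untreated plants of the same line (Cy3) on a two-colour Agilent array, so that an array gives 1 ratio of Al-treated to untreated for each probe. There were 4 arrays, 2 per line, made from 2 independent sets of pooled plants. The comparison addresses which genes respond to Al stress in Col-0 and whether the AvSAMS1 TF line responds alike.

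Both lines were about 3 weeks old, grown in soil at 25°C under a day of 16 h and a night of 8 h, and the treated plants received aluminum chloride at pH 4.2 for 2 d. The labels give the concentration as 300 mM, whereas the methods of the study give the same number in micromolar. By the labels, the untreated plants of replicate 1 were sampled at 0 d in both lines and those of replicate 2 at 2 d, so the ratio of replicate 1 also spans 2 d of growth. The tissue is labelled as whole plant, but the labelling step names shoots. The dyes were not swapped on any array, so a dye effect of a probe remains in each ratio. The replicate 2 arrays of both lines shared 1 slide, and the replicate 1 arrays were on a slide each, so that the values of replicate 2 compare the lines within a slide.

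The arrays did not resemble each other equally. Over all probes, log2 ratios correlated at 0.69 for the pair of replicate 2 arrays, at 0.31 within Col-0 and at -0.16 within AvSAMS1 TF. AvSAMS1 TF replicate 1 also had the fewest Cy3 spots well above background (62.1%, against 77.9% in AvSAMS1 TF replicate 2). Each result of AvSAMS1 TF below is therefore given by array. Root markers differed between samples as well. Of 15 root markers, 9 were not well above background in untreated Col-0 replicate 1 and 6 in untreated AvSAMS1 TF replicate 1, and all 15 were above it in both untreated samples of replicate 2. The 6 were not above background in either untreated sample of replicate 1, and included EXPA18, RHD6, COBL9 and PRP3, which mark root hairs, and the iron transporter IRT1. The log2 of the summed root marker signal was 14.22 and 16.20 in untreated Col-0, 16.49 and 15.75 in Al-treated Col-0, 13.99 and 15.86 in untreated AvSAMS1 TF, and 15.01 and 15.91 in Al-treated AvSAMS1 TF (replicates 1 and 2). PYK10, a glucosidase of the root, and TIP2;3, CASP2, ESB1 and SCR were well above background in all 8 samples, and the other root markers were not. In the order of the sums, PYK10 alone was at 13.95 and 15.85, 16.43 and 15.66, 13.76 and 15.69, and 14.90 and 15.85. The sum thus mostly follows PYK10. The root marker signals do not settle which tissue was sampled, and their level differed between samples.

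**Figure D1:**
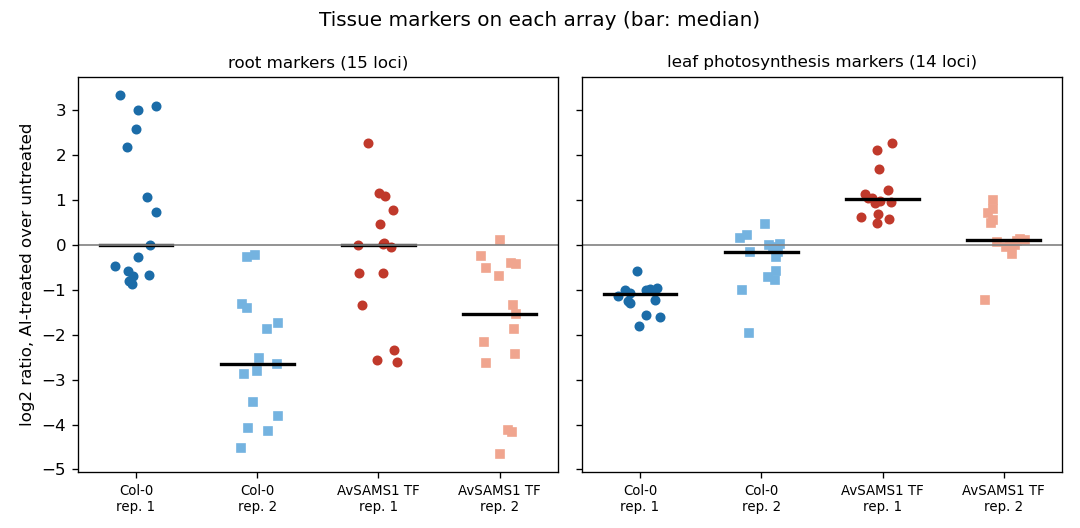
Log2 ratio of Al-treated to untreated (vertical axis) for 15 root markers (left) and 14 leaf photosynthesis markers (right) on each of the 4 arrays, 1 point per locus, with a bar at the median. The root medians were -2.65 and -1.53 on the replicate 2 arrays of Col-0 and AvSAMS1 TF and are not read on the replicate 1 arrays, where 9 and 6 root markers had no untreated signal well above background and the ratio of EXPA18 is listed at 0, whereas the leaf medians ran from -1.10 on Col-0 replicate 1 to 1.01 on AvSAMS1 TF replicate 1.

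Roots take up potassium through a high-affinity transporter, HAK5, which works where potassium outside is scarce and whose transcript is known to accumulate under potassium starvation, and through AKT1, a channel of the Shaker family that carries the inward current. KC1 has no current of its own and joins AKT1 in a common channel, and CIPK23 is the kinase that, bound to calcineurin B-like calcium sensors, phosphorylates and activates both AKT1 and HAK5. Potassium leaves cells through the outward channels GORK, in guard cells and root hairs, and SKOR, in the root stele, where it loads the xylem.

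HAK5 had the largest log2 ratio of the 10 genes on 3 of the 4 arrays, and lay near 0 on the fourth. Its log2 ratio of Al-treated to untreated was 8.05 in Col-0 replicate 1, 5.91 in Col-0 replicate 2, -0.15 in AvSAMS1 TF replicate 1 and 8.01 in AvSAMS1 TF replicate 2. These ratios are 264-fold, 59.9-fold, 0.904-fold and 258-fold. The 2 AvSAMS1 TF arrays therefore did not resemble each other for HAK5, and one of them lay among the Col-0 values. Among all loci tested, ranked from the highest ratio, HAK5 was at place 1 in Col-0 replicate 1, 23 in Col-0 replicate 2, 13295 in AvSAMS1 TF replicate 1 and 2 in AvSAMS1 TF replicate 2, of at least 21226 loci.

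The mean log2 ratio of HAK5 was 6.98 ± 1.51 in Col-0 and 3.93 ± 5.77 in AvSAMS1 TF (SD, n = 2 arrays each). The spread in AvSAMS1 TF exceeded its mean, and the value of that line is 8.01 without replicate 1 and -0.15 without replicate 2. AvSAMS1 TF minus Col-0 was -8.19 within replicate 1 and 2.1 within replicate 2, where both arrays shared a slide. The direction of the difference between the lines thus depended on the replicate.

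The signals of the 2 dyes show which side of the ratio differed. The deposited processed signal of HAK5 in untreated plants was 249 and 680 in Col-0 against 170 and 194 in AvSAMS1 TF (replicates 1 and 2). In Al-treated plants it was 65879 and 40773 in Col-0, but 154 and 50074 in AvSAMS1 TF. All 8 of these signals were well above background and none was saturated, so the low ratio of AvSAMS1 TF replicate 1 was measured on both sides and came with a low Cy5 signal.

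After normalization between arrays, the log2 signal of HAK5 in the 8 RNA samples was, from the lowest, 7.27 in untreated AvSAMS1 TF replicate 2, 8.28 and 8.29 in Al-treated and untreated AvSAMS1 TF replicate 1, 8.37 and 8.85 in untreated Col-0 replicates 1 and 2, 14.47 in Al-treated Col-0 replicate 2, 14.74 in Al-treated AvSAMS1 TF replicate 2 and 15.75 in Al-treated Col-0 replicate 1. The 3 Al-treated samples at the top stood apart from the other 5. Untreated HAK5 was 8.61 ± 0.34 in Col-0 and 7.78 ± 0.72 in AvSAMS1 TF (SD, n = 2). Both AvSAMS1 TF samples were below both Col-0 samples, as were those of 21.9% of loci. The 3 samples from 8.28 to 8.37, and those at 14.47 and 14.74, lay closer together than the SD of either line. In samples of pooled plants, a smaller share of the cells that express a gene and less RNA per cell cannot be told apart.

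The HAK5 ratio was high on the replicate 2 arrays of both lines, where most root markers were lower under Al. Of the 15 root markers, 0 were past 2-fold higher and 13 lower on Col-0 replicate 2. On AvSAMS1 TF replicate 2, 0 were higher and 9 lower. Of all 21230 loci tested, 1794 were higher and 1628 lower on the former array, and 1652 and 1372 on the latter. Such counts are not read on the replicate 1 arrays, where 9 and 6 root markers had no untreated signal well above background. These include AvSAMS1 TF replicate 1, where HAK5 lay at -0.15. The part of the root share of the samples in the HAK5 ratio was not tested.

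**Figure D2:**
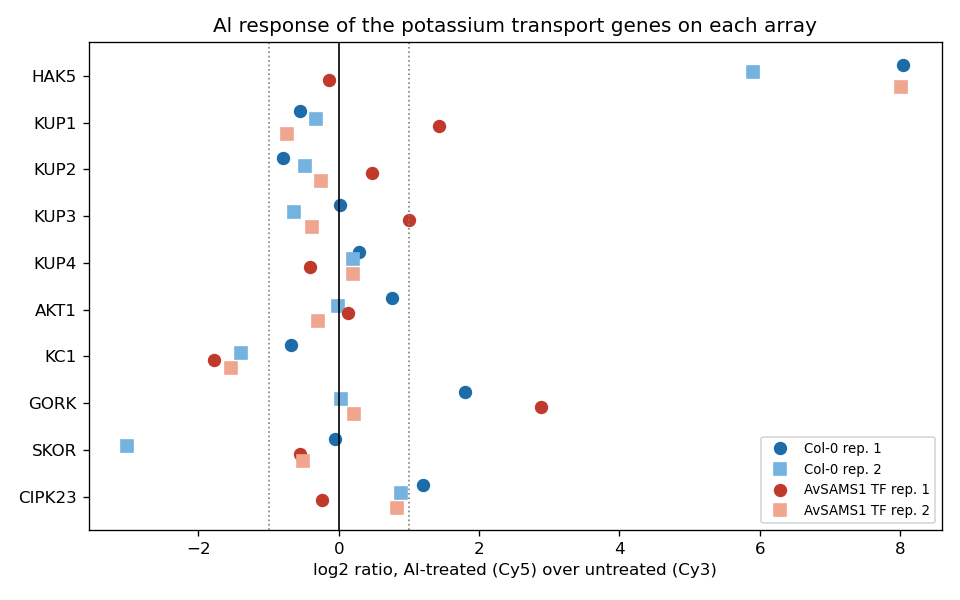
Log2 ratio of Al-treated (Cy5) to untreated (Cy3) on the horizontal axis for the 10 genes, with 1 point per array (circles, replicate 1; squares, replicate 2; blue, Col-0; red, AvSAMS1 TF) and dotted lines at -1 and 1. HAK5 lay between 5.91 and 8.05 on 3 arrays and at -0.15 on AvSAMS1 TF replicate 1, and KC1 lay below 0 on all 4.

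The 5 loci whose ratios over the 4 arrays were nearest to those of HAK5, by root mean square difference in log2 ratio over 18478 candidate loci, were AT1G51830 (1.3), AATP1 (AT5G40010, 1.72), PGAZAT (AT2G41850, 2.00), AT5G38200 (2.1) and AT4G30670 (2.21). On AvSAMS1 TF replicate 1 these loci had log2 ratios of -1.34, -2.63, -2.77, -0.46 and -2.45 in that order, and on the other 3 arrays between 3.98 and 7.14. Since that array was part of the choice, their low values on it are a description only. The untreated signals of AATP1 and PGAZAT in Col-0 replicate 1 were not well above background.

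By a limit chosen after the values were seen, 49 loci, HAK5 included, had a log2 ratio above 3, which is 8-fold, on the other 3 arrays. On AvSAMS1 TF replicate 1 the log2 ratio of these 49 loci had a median of -0.44 and a range of -3.45 to 4.83, with 26 loci below 0 and 11 above 1. One of those above 1 was ALMT1 (AT1G08430), the malate transporter through which roots exude malate under Al, at 7.78 and 6.31 in Col-0 against 4.10 and 5.79 in AvSAMS1 TF (replicates 1 and 2). It was chosen after its values were seen, to give a known Al-responsive gene on the array where HAK5 lay near 0.

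**Figure D3:**
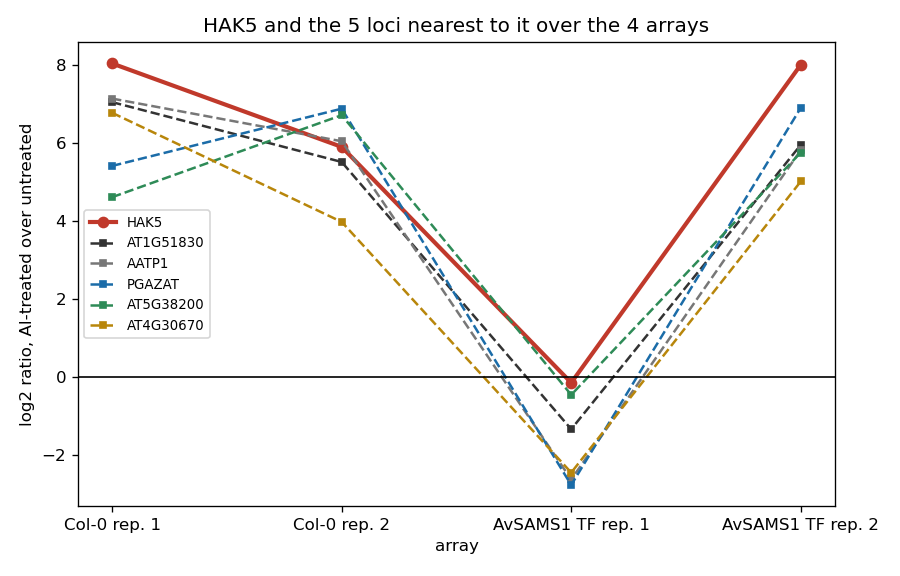
Log2 ratio of Al-treated to untreated (vertical axis) on the 4 arrays for HAK5 (solid red line) and the 5 loci nearest to it (dashed lines), where lines only join the values of 1 locus. All 6 loci lay at 3.98 or higher on 3 arrays and below 0 on AvSAMS1 TF replicate 1.

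The 4 transporters KUP1 to KUP4 belong to the same family as HAK5, but none of them showed its pattern. KUP1, which takes up potassium at both low and high concentrations when studied in cells, lay at -0.55 and -0.33 on the log2 scale in Col-0 and at 1.43 and -0.74 in AvSAMS1 TF (replicates 1 and 2). AvSAMS1 TF replicate 1 was the only array above 0. KUP2, known for a mutant with short, poorly expanding cells, was likewise at -0.79 and -0.49 in Col-0 and at 0.47 and -0.25 in AvSAMS1 TF, and KUP3 was at 0.01 and -0.64 in Col-0 and at 1.00 and -0.38 in AvSAMS1 TF. For these 3 genes the highest ratio was on AvSAMS1 TF replicate 1, the array on which HAK5 was lowest.

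KUP4, which is needed for the tip growth of root hairs, differed least of these 4, at 0.29 and 0.20 in Col-0 and at -0.41 and 0.20 in AvSAMS1 TF. Its second, dimmer probe read between 0.10 and 0.64 on the 4 arrays and so was above 0 on AvSAMS1 TF replicate 1 as well, unlike the brighter one. The second probe of KUP2 ran from -0.56 to 1.39, also with its highest value on AvSAMS1 TF replicate 1, but it was well above background in only 4 of 8 signals. The adjusted p of the 4 KUP genes in limma over all probes was between 0.696 and 0.918 in Col-0 and between 0.992 and 0.995 in AvSAMS1 TF.

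For KUP1, KUP2 and KUP3 the mean difference in level between the lines was larger in untreated than in Al-treated plants. The normalized log2 signal of KUP1 in untreated plants was 9.89 and 9.88 in Col-0 against 8.17 and 9.32 in AvSAMS1 TF, and in Al-treated plants 9.45 and 9.61 against 9.27 and 8.69 (replicates 1 and 2). Both AvSAMS1 TF samples were below both Col-0 samples in each treatment, as were 21.9% of loci untreated and 18.6% under Al. The mean difference was -1.14 (SE 0.46) untreated and -0.55 (SE 0.30) under Al. KUP2 had untreated signals of 13.47 and 13.39 in Col-0 against 12.22 and 12.89 in AvSAMS1 TF, and KUP3 of 11.84 and 12.49 in Col-0 against 10.51 and 12.30 in AvSAMS1 TF. For all 3 genes untreated AvSAMS1 TF replicate 1 was the lowest of the 4 untreated samples, and none of these differences passed the test (adjusted p from limma between 0.712 and 0.868 untreated). The summed signal of the 14 leaf photosynthesis markers was also lowest in that sample. On the log2 scale it was 20.31, against 21.06 to 21.98 in the other untreated samples. The median ratio of these markers was highest on AvSAMS1 TF replicate 1 (1.01). The part of leaf RNA in the KUP values was not tested.

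Of the inward channel and its partner, KC1 had lower signals in Al-treated than in untreated plants on all arrays, and AKT1 showed no common direction. The log2 ratio of KC1 was -0.68 and -1.39 in Col-0 against -1.78 and -1.54 in AvSAMS1 TF (replicates 1 and 2). Untreated plants thus had 1.60-fold and 2.62-fold the Al-treated signal in Col-0, and 3.44-fold and 2.91-fold in AvSAMS1 TF. The line ranges did not overlap, with both AvSAMS1 TF ratios below both Col-0 ratios, as for 11.3% of loci. The means were -1.03 ± 0.50 in Col-0 and -1.66 ± 0.17 in AvSAMS1 TF (SD, n = 2). KC1 stayed below 0 on every array under another background correction (normexp), whether followed by loess or by median centring.

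The difference of KC1 was larger than the spread between arrays, but did not pass the test over all probes. In limma, the p before adjustment was 0.0293 in Col-0 and 0.0059 in AvSAMS1 TF, and the adjusted p 0.655 and 0.991. AvSAMS1 TF minus Col-0 was -0.63 (SE 0.44, adjusted p from limma of 0.999), made up of -1.10 within replicate 1 and -0.15 within replicate 2. The line difference thus came mostly from replicate 1. Counted from the lowest ratio, KC1 was at place 3311 in Col-0 replicate 1, 883 in Col-0 replicate 2, 952 in AvSAMS1 TF replicate 1 and 579 in AvSAMS1 TF replicate 2.

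The untreated signal of KC1 was higher in the AvSAMS1 TF line in both replicates, without passing the test. In untreated plants its normalized log2 signal was 12.00 and 11.75 in Col-0 against 13.43 and 12.62 in AvSAMS1 TF, and in Al-treated plants 11.30 and 10.47 against 11.63 and 11.14 (replicates 1 and 2). Untreated samples of the lines did not overlap, with both of AvSAMS1 TF higher, as for 14.3% of loci. AvSAMS1 TF was higher by 1.15 (SE 0.38, adjusted p from limma of 0.642), by 1.43 within replicate 1 and by 0.87 within replicate 2. Al-treated samples did overlap, with a difference of 0.50 (SE 0.39).

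AKT1 lay at log2 ratios of 0.76 and -0.01 (Col-0) and of 0.13 and -0.30 (AvSAMS1 TF). No array was past 2-fold, and the means of 0.38 ± 0.54 and -0.09 ± 0.30 (SD, n = 2) were within the spread between arrays. In untreated plants AKT1 was higher in AvSAMS1 TF by 0.60 within replicate 1 and by 0.59 within replicate 2 (mean 0.59, SE 0.37, adjusted p from limma of 0.800), with signals of 9.80 and 10.36 against 9.20 and 9.77. KC1 and AKT1, which form 1 channel, were thus both higher in untreated AvSAMS1 TF on both replicates, without passing the test.

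**Figure D4:**
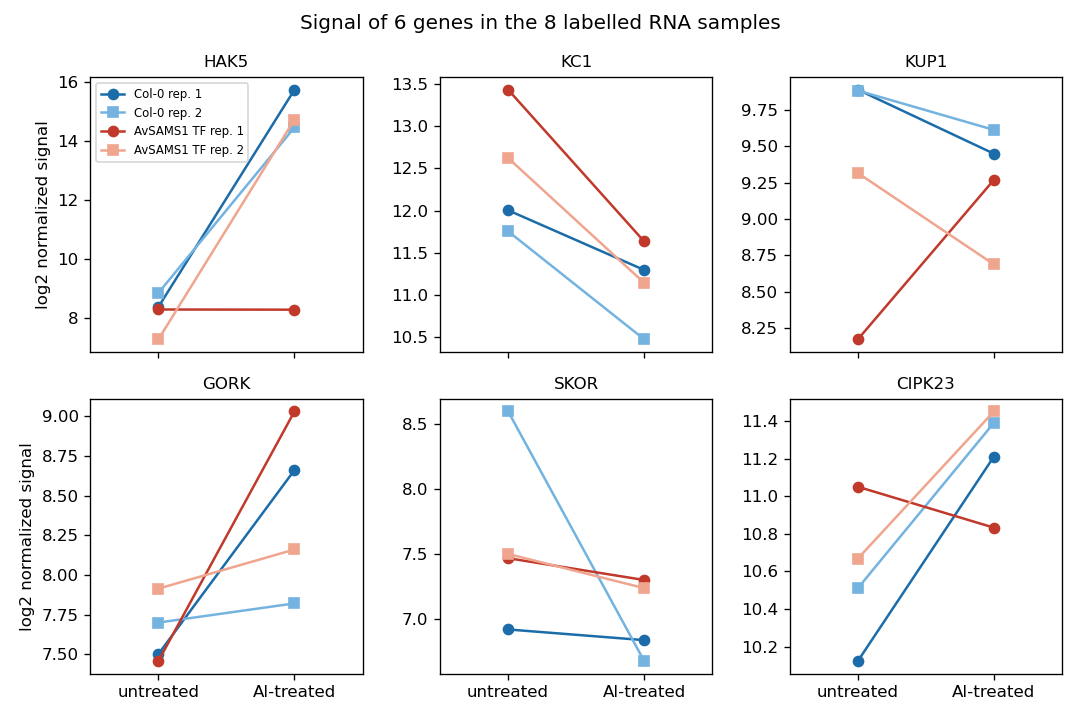
Normalized log2 signal (vertical axis, a scale of its own in each panel) of HAK5, KC1, KUP1, GORK, SKOR and CIPK23 in untreated and Al-treated plants, with a line for each array (circles, replicate 1; squares, replicate 2; blue, Col-0; red, AvSAMS1 TF). KC1 lay lower under Al on all 4 arrays from a higher untreated level in AvSAMS1 TF, and GORK lay higher under Al mainly on the replicate 1 arrays.

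Of the outward channels, GORK was past 2-fold higher on Col-0 replicate 1, and SKOR past 2-fold lower on 1 array. The log2 ratio of GORK, the channel of guard cells, was 1.79 in Col-0 replicate 1 and 2.89 in AvSAMS1 TF replicate 1, but 0.03 and 0.22 in replicate 2 of these lines. GORK was above 0 on all 4 arrays, at 3.47-fold in Col-0 replicate 1 and at 1.02-fold and 1.17-fold in replicate 2. No fold is given for AvSAMS1 TF replicate 1, where its untreated signal was not well above background, so that the log2 ratio of 2.89 is uncertain. Replicate 1 is the one whose untreated plants were sampled 2 d earlier than the treated plants. The sampling time and the replicate cannot be told apart here.

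The GORK means were 0.91 ± 1.24 in Col-0 and 1.56 ± 1.88 in AvSAMS1 TF (SD, n = 2), each smaller than its spread, and the adjusted p from limma was 0.836 and 0.991. The processed signals of GORK in untreated plants of replicate 1 were 86.3 in Col-0 and 42.2 in AvSAMS1 TF, the latter not well above background. In replicate 2 they were 328 and 403. The replicate 1 arrays were dimmer, with median processed Cy3 signals of 244 and 152, against 505 and 512 in replicate 2. In Al-treated plants the processed signals of GORK lay between 299 and 470. After normalization between arrays, its untreated log2 signals lay between 7.46 and 7.91. Its Al-treated log2 signals were 8.66 and 9.03 in replicate 1 of Col-0 and AvSAMS1 TF, against 7.82 and 8.16 in replicate 2. With a background correction that raises dim signals (normexp with an offset), the mean log2 ratio in AvSAMS1 TF was as low as 0.91, with replicate 1 at 1.57.

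SKOR, the channel that releases potassium into the xylem of the root, lay at -0.05 and -3.01 on the log2 scale in Col-0 and at -0.55 and -0.51 in AvSAMS1 TF. Only Col-0 replicate 2 was past 2-fold, and there SKOR was at place 181 from the lowest of all loci. Its processed signal in untreated plants was 34.9 and 516 in Col-0 against 45.8 and 173 in AvSAMS1 TF, against 33.7 and 63.9, and 31.2 and 122, in Al-treated plants. The untreated signal of Col-0 replicate 2 was the highest of the 8. With normexp, the Col-0 replicate 2 ratio was -1.92 (loess) or -1.86 (median centring), and the AvSAMS1 TF mean was as near to 0 as -0.22.

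That sample also had the highest summed root marker signal of the 4 untreated samples, a sum that comes mostly from PYK10. On the array of Col-0 replicate 2, 13 of the 15 root markers were past 2-fold lower in Al-treated plants. On AvSAMS1 TF replicate 2 there were 9 such root markers. Over all 21230 loci tested, 1628 were past 2-fold lower on Col-0 replicate 2 and 1372 on AvSAMS1 TF replicate 2. Root markers are not counted on the replicate 1 arrays, where several had no untreated signal well above background. The part of the root share of the samples in the SKOR ratio was not tested. HAK5 was 59.9-fold higher on Col-0 replicate 2, the array on which most root markers were lower. The mean SKOR ratios were -1.53 ± 2.09 in Col-0 and -0.53 ± 0.03 in AvSAMS1 TF (SD, n = 2; adjusted p from limma of 0.702 and 0.992).

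CIPK23, the kinase that activates AKT1 and HAK5, lay at 1.20 and 0.89 on the log2 scale in Col-0 and at -0.25 and 0.83 in AvSAMS1 TF (replicates 1 and 2). As for HAK5, AvSAMS1 TF replicate 1 was the lowest array. The other 3 arrays were close to each other for CIPK23, whereas for HAK5 they ranged from 5.91 to 8.05. The Col-0 mean was 1.04 ± 0.22 (SD, n = 2), with a p of 0.0493 before and 0.655 after adjustment in limma, and the AvSAMS1 TF mean was 0.29 ± 0.76 (adjusted p from limma of 0.991). AvSAMS1 TF minus Col-0 was -1.44 within replicate 1 and -0.06 within replicate 2. Median centring after normexp turned the AvSAMS1 TF replicate 1 value to 0.13, below the median of the probes kept on that array (0.185).

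Of the 10 genes, GORK was above 0 on all 4 arrays, which 11.2% of all loci tested were, KC1 and SKOR were below 0 on all 4, which 9.7% of loci were, and the other 7 had both signs. Median centring after normexp put HAK5, AKT1, GORK and CIPK23 above 0 on all 4 arrays, with HAK5 at 0.27 on AvSAMS1 TF replicate 1. That setting left the median of the probes kept above 0, at 0.185 on AvSAMS1 TF replicate 1 and 0.154 on AvSAMS1 TF replicate 2. CIPK23 on the former (0.13) and AKT1 on the latter (0.08) lay below that median. In Col-0, HAK5 was past 2-fold higher on both arrays (3.68% of loci were) and none was past 2-fold lower (2.45% of loci). In AvSAMS1 TF, none was past 2-fold higher on both arrays (0.947% of loci) and KC1 was past 2-fold lower (1.45% of loci). Since the set was built on the ratios of HAK5, nothing is read from these counts.

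The lines resembled each other more in replicate 2 than in replicate 1. In replicate 2, the ratios of the 2 lines had the same sign for all 10 genes, as they did for 80.3% of loci, and in replicate 1 for 5 of the 10 genes, against 51.5% of loci. Between the lines, KUP2 had both AvSAMS1 TF ratios above both Col-0 ratios (15.6% of loci did), and KC1 and CIPK23 had both below (11.3% of loci). No adjusted p of the 9 genes other than HAK5 was under 0.05 for the Al response of either line or for their difference. The lowest for Col-0 was 0.655, for AvSAMS1 TF 0.991 and for the difference 0.999, and in limma 0 of all 34742 probes passed in any of these comparisons, with 2618, 1209 and 336 probes at a p under 0.05 before adjustment.

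**Figure D5:**
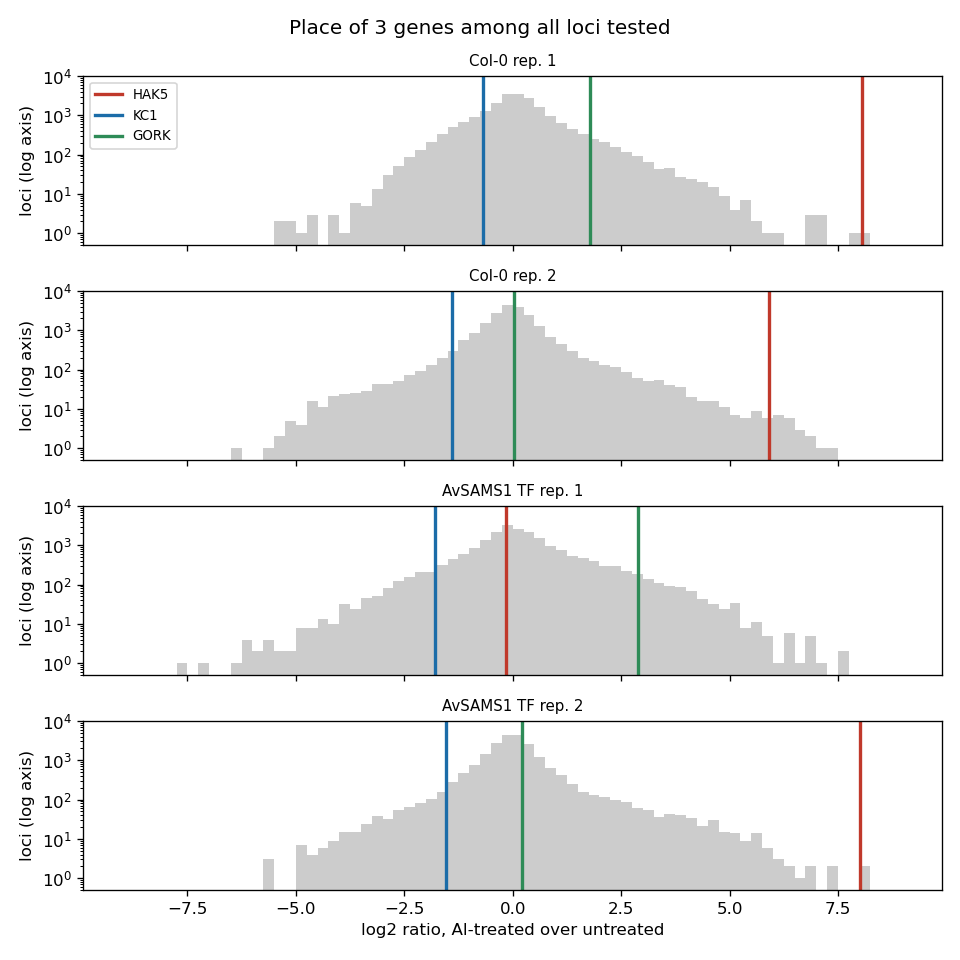
Number of loci (vertical axis, log scale) by log2 ratio of Al-treated to untreated (horizontal axis) on each array, with lines at HAK5 (red), KC1 (blue) and GORK (green). HAK5 lay at or near the upper end on 3 arrays and in the middle on AvSAMS1 TF replicate 1, where KC1 was at -1.78. GORK was at 2.89 there, with an untreated signal not well above background.

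Set directly against each other, untreated plants of the lines did not overlap for 6 of the 10 genes. AKT1, KC1 and CIPK23 were higher in both AvSAMS1 TF samples than in both Col-0 samples (14.3% of loci were), and HAK5, KUP1 and KUP2 were lower (21.9% of loci). In Al-treated plants AKT1 and SKOR were higher (16.7% of loci) and KUP1 was lower (18.6% of loci). Of these, SKOR had signals of 7.3 and 7.24 in Al-treated AvSAMS1 TF against 6.84 and 6.68 in Col-0, a difference of 0.51 (SE 0.24). No adjusted p from limma of the 9 genes was below 0.642 untreated or 0.679 under Al, where 0.224% (75) and 0.676% (229) of probes passed. With the replicate number as a block, 430 probes passed untreated, and the lowest adjusted p of the 9 genes was 0.147.

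Other genes of potassium transport and its control were read from 4 lists of 45 genes, of which 40 passed the filter on dim signals. None of the 40 passed the test in either line in limma. At a p under 0.05 before adjustment there were 7 in Col-0 and 1, TPK5, in AvSAMS1 TF, against 1555 and 732 of 21230 loci tested. By the deposited ratio, 2 (KAT2 and AIP1) were past 2-fold higher on both Col-0 arrays (3.68% of loci) and 2 (SPIK and KEA1) lower (2.45% of loci). In AvSAMS1 TF 0 were higher (0.947% of loci) and 1 (RAP2.11) was lower (1.45% of loci). Of these 5, KAT2 and KEA1 alone were well above background on both sides of each ratio. The median log2 ratio of the 40 genes was 0.20 and -0.21 for the Col-0 arrays and -0.18 and -0.08 for those of AvSAMS1 TF. Over all loci tested it was 0.05, -0.02, 0.05 and -0.01.

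Among the 8 other KUP transporters, KUP10 had the highest mean ratio and, as HAK5, its lowest value on AvSAMS1 TF replicate 1, at 0.96 and 1.78 on the log2 scale in Col-0 and at -1.28 and 1.23 in AvSAMS1 TF (replicates 1 and 2). KUP9 came next, between 0.03 and 0.55 on the 4 arrays. KUP8 had the lowest mean, at -0.86 and -0.85 in Col-0 against -0.44 and -0.72 in AvSAMS1 TF. KUP12, the second lowest, ran from -0.92 to 0.87.

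In the list of other channels, which had 9 tested genes with the sodium transporter HKT1 among them, KAT2, an inward channel of guard cells, was at 3.23 and 1.18 in Col-0 and at -0.13 and 1.43 in AvSAMS1 TF. Like HAK5, KAT2 was past 2-fold higher on 3 arrays and near 0 on AvSAMS1 TF replicate 1. HKT1, which retrieves sodium from the xylem, was not well above background in either untreated sample of replicate 1, so that its ratios there are not given, and it lay at 0.20 and 0.47 in replicate 2 of Col-0 and AvSAMS1 TF. The potassium channel TPK5 lay at -1.22 and -0.92 in Col-0 against -0.76 and -0.92 in AvSAMS1 TF. SPIK, a channel of pollen, was not well above background in any Col-0 sample, so that no fold is given there.

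Among the 11 cation/proton exchangers, KEA1 and KEA3, which exchange potassium for protons in the plastid, had the lowest means. KEA1 was at -1.42 and -1.05 in Col-0 and at 0.31 and -0.62 in AvSAMS1 TF, and KEA3 at -1.16 and -0.66 and at 0.16 and -0.67. Both were below 0 on 3 arrays and above 0 on AvSAMS1 TF replicate 1, where leaf photosynthesis markers also had their highest median (1.01). The part of leaf RNA in these ratios was not tested. KEA4 and KEA5 had the highest means, with ratios between -0.52 and 0.79.

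Among 12 regulators, AIP1, a protein phosphatase that acts on the channel AKT1, had the highest mean, which rests in part on untreated samples of replicate 1 that were not well above background. In replicate 2, where all its signals were above it, AIP1 lay at 2.37 in Col-0 and 1.82 in AvSAMS1 TF. The calcium sensors CBL1 and CBL9, which bind CIPK23, differed in direction. CBL1 was at 0.28 and 2.39 in Col-0 and at -0.63 and 2.15 in AvSAMS1 TF, high in replicate 2 of both lines, whereas CBL9 was below 0 on all 4 arrays, between -0.93 and -0.32. RAP2.11, a transcription factor that binds the HAK5 promoter, was not well above background in any Al-treated sample, and was measured above it in the untreated samples of replicate 2 alone. No fold is given for it.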

How the data were processed

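Col-0 and AvSAMS1 TF were measured on 4 two-colour arrays, assigned to line and replicate by the sample labels. The deposited scanner files give for each spot the log10 of Cy5 divided by Cy3, a ratio that the authors' run of Agilent Feature Extraction (10.7.1.1 and 11.0.1.1 per the file headers, 10.7.3.1 per the labels) computed after background subtraction and dye normalization. They also hold the deposited intensity of each channel, as processed signals and as median signals of spot and local background, and score-like flags (0 or 1) by which the authors' software marked spots as well above background, saturated or outlying. The deposited series table holds log2 ratios of the authors. It differed from the scanner ratio by at most 3.07e-06 on probes well above background in both channels, and its columns had medians of 0.10, -0.08, 0.10 and -0.03. The per-array p-value and error of the ratio, which the authors' software deposited, were not used. Columns of samples that could not be assigned numbered 0.

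Ratios were put on the log2 scale, control spots and outliers (10 to 23 spots per array) were left out, spots of a probe were averaged, and 34485 probes were assigned to 25482 loci by the files, with symbols from the TAIR10.1 gene table. The header annotations are of other builds, so no coordinates are given. Probes were kept if the flag of either dye marked them well above background on 2 or more arrays. The Al response of each line and the difference were fitted with limma 3.58.1 (R 4.3.3; lmFit and eBayes, Benjamini-Hochberg over all probes, threshold 0.05) on all 4 arrays with 1 coefficient per line. Channel levels were compared after normexp (offset 50), loess and Aquantile. The median signals were used there, since mean signals were planned but not used here. Scripts were tested on simulated data. The number of arrays limits the precision. The p-values measure the spread between the arrays of a line, which differed in plant pool, slide and sampling time of the untreated plants.

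Replicate numbers stand for 2 experiments in the labels. The deviations of same-numbered arrays from their line means correlated at 0.47 over the 2 pairs. The number was therefore taken to pair the samples, and line differences are also given within each replicate. The reported SE and adjusted p come from limma fits without this pairing, unless the replicate block is named. Alternatives were other background corrections, the series table, no filter or a strict one, the replicate block, an intensity trend, the methods' t-test, all probes of a locus and leaving out each array. Named are all 10 genes, the 2 highest and 2 lowest mean ratios of each of 4 other lists, and the 5 loci nearest to HAK5. The genes and all lists, root and leaf markers included, were chosen with earlier results of these data known.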

Additional observations from a re-analysis of the deposited data

How the results depend on the processing

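With the replicate number as a block, 0 probes passed the adjusted p for the Al response of either line or for their difference, as without it. For untreated AvSAMS1 TF against untreated Col-0 the block gave 430 probes in place of 75, and for Al-treated plants 257 in place of 229. The block brought none of the 9 genes other than HAK5 under the threshold. Leaving out an array gave 0 to 0 probes for both of these comparisons, and so did the strict filter (0 and 0). Quantile normalization gave 142 and 356. The methods' t-test gave 1 probe for Col-0 after Benjamini-Hochberg adjustment, in place of 0.

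Probes past 2-fold on both arrays of a line numbered 1104 higher and 896 lower for Col-0, and 288 higher and 434 lower for AvSAMS1 TF. With normexp and loess they were 594 and 473, and 90 and 167. With normexp and median centring 172 were lower in Col-0 and 109 in AvSAMS1 TF. With the strict filter, which tests fewer probes, 630 were higher in Col-0, and 86 higher and 218 lower in AvSAMS1 TF. Apart from the strict filter, the cause was not tested. Median centring after normexp was done over all spots other than controls, and left the median log2 ratio of the probes kept between 0.15 and 0.19. Of 90 values of the 10 genes under another background correction, normalization or choice of probe, 79 stayed within 1 SD of the reported value and 11 moved further, 7 of them under median centring after normexp. The mean ratio of HAK5 in AvSAMS1 TF lay between 3.73 and 4.03 under other processing, and between -0.15 and 8.01 with 1 array left out.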
